A study of Mus musculus with 6 samples.

Results

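The genes described here make cholesterol and fatty acids or handle their products. They were chosen by name, as 35 mouse genes of the mevalonate pathway, of the sterol branch up to cholesterol, of fatty acid synthesis and desaturation, of the regulators of these enzymes, and of oxysterol formation and cholesterol efflux. Of these, 31 had a probe set of that symbol among the 19505 genes named on the array, and each had 1 probe set. The other 4 (Acat2, Scd2, Srebf1 and Tm7sf2) were not analysed here. RNA came from 2 mouse heart cell types, cardiac fibroblasts (CF), which lay down matrix, and cardiomyocytes (CM), which contract. Cultures spent 48 h with phosphate-buffered saline (PBS, the arrays titled sham), with a Ccrl2+ macrophage secretome or with a Ccrl2- one. The labels give C57BL/6N mice of 15 to 16 weeks for every sample. Macrophages of both kinds were sorted from a pool of 6 wild-type hearts taken 1 week after TAC, the surgical banding of the aorta that overloads the left ventricle. The protocols speak of co-culture with the macrophages themselves where the source labels name a secretome, so what the cultures received is uncertain to that extent. Each of the 6 groups had 1 array from 1 culture, so no difference below has a replicate check, no p-value was computed, and precision is limited throughout by this small number of arrays.

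Cells build cholesterol from acetyl-CoA through mevalonate, farnesyl diphosphate, squalene and lanosterol, and build fatty acids from the same acetyl-CoA through malonyl-CoA. The transcription factors SREBP-1 and SREBP-2 switch on both routes when sterols in the endoplasmic reticulum are scarce. The Insig proteins hold these factors back when sterols are plentiful, and oxysterols such as the product of Ch25h add to that restraint. Oxysterols also activate the liver X receptors (LXR), nuclear receptors whose targets include the cholesterol exporter Abca1. In macrophages and other cells Ch25h is a known interferon- and endotoxin-responsive gene, and Cyp7b1 breaks its product down.

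Values are log2 probe set summaries, so a difference of 1 is 2-fold. A gene entered a comparison when the higher of its values reached 6.55, a floor set at the median over all named genes and arrays. On the 6 arrays the 5222 negative controls had medians between 6.2 and 6.71 and a 95th percentile between 10.2 and 10.74. Values near the floor are therefore at background. Of the 31 genes, 30 reached the floor on every array, all but Cyp7b1, and 24 exceeded the 95th percentile of the controls on every array. At least 2-fold differences were seen in 12.9% to 19.7% of negative controls past the floor in the secretome comparisons. Markers matched the labelled cell types in PBS, since all 7 fibroblast markers were higher in CF than in CM by 2-fold or more and all 8 cardiomyocyte markers lower. The CM cultures also carried endothelial transcripts (Cdh5 at 15.57 in PBS against 10.49 in CF) and the fibroblast marker Dcn (15.34 against 17.53). In turn, the CF cultures carried the cardiomyocyte marker Tnnt2, at 16.12 in PBS against 18.03 in CM. Of 8 adipocyte markers, the 5 defining ones (Adipoq, Plin1, Cidec, Lep and Retn) lay below the floor on all 6 arrays. The other 3, which cells besides adipocytes also express, did not: Fabp4 lay at 15.6 in CM with PBS and at 8.05, 11.41 and 9.8 on the CF arrays, Lpl between 13.27 and 14.79 on all 6, and Pparg at 11.43 in CM with PBS but below the floor in CF. The summed adipocyte level, which came almost wholly from these less specific genes, was 16.3 in CM with PBS and 14.04 in CF with PBS. In such bulk RNA, fewer cells of a type and less RNA per cell cannot be told apart.

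In fibroblasts with the Ccrl2+ secretome, genes of sterol and fatty acid synthesis lay slightly below PBS almost throughout. Leaving aside the 3 genes of oxysterols and efflux, 25 of 28 were lower and 3 higher, with a median difference of -0.44 and a range of -0.98 to 0.89. Among all 10042 genes past the floor 55.3% were lower, and the median was -0.07. The shift was small for each gene. Of all 31 genes, 1 was at least 2-fold lower (6.13% of all genes) and 0 were at least 2-fold higher (4.87%), while at 1.5-fold 7 were lower (15.0% of all genes) and 3 higher (11.4%). With an added quantile normalization or with the intensity trend removed, 6 of the 28 lay above PBS. The share of all genes above PBS was not computed for either setting. Dividing-cell markers were lower on the same array, 5 of 5 by at least 2-fold, among them Mki67 (12.26 against 14.19), and their summed level was 12.57 against 14.6 in log2 units. Cardiomyocyte markers were higher there, with a summed level of 17.1 against 16.17 that came almost wholly from Tnnt2 (17.03 against 16.12). Higher too were 6 of 7 macrophage markers (14.75 against 14.08). The summed adipocyte level (14.91 against 14.04) came almost wholly from Lpl (14.77 against 14.01) and Fabp4 (11.41 against 8.05). The defining adipocyte markers lay below the floor. The poly-A spike controls, RNAs added to each sample, were also higher, by a median of 0.61, which exceeds the median size of the synthesis difference. The part of each of these in the lower synthesis genes was not tested.

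In fibroblasts with the Ccrl2- secretome, most synthesis genes lay near PBS, with Dhcr7 lower by 1.38, while the oxysterol genes Ch25h and Cyp7b1 were the furthest above it and the exporter gene Abca1 was higher by 1.15. The 28 synthesis genes had a median of -0.13 (all genes: -0.09), with 22 lower, 5 higher and 1 equal, beside 57.8% of all 10057 genes lower. When the intensity trend was removed, 11 were higher and the median was -0.03 (all genes: 0.01). The share of all genes higher was not computed with the trend removed. Of the 31 genes, 3 were at least 2-fold higher (6.18% of all genes), namely Ch25h, Cyp7b1 and Abca1, and 1, Dhcr7, was at least 2-fold lower (4.83%). Macrophage markers split on this array, with 2 of 7 at least 2-fold higher and 4 lower, and their summed level was 14.33 against 14.08 in PBS. The poly-A spikes, the RNAs added to each sample, had a median difference of -0.31, which exceeds the size of the synthesis median. The part of the spike difference in these values was not tested.

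Set directly against each other, the fibroblast arrays differed by a median of -0.29 over the 28 synthesis genes, 18 lower and 10 higher with Ccrl2+ than with Ccrl2-. The median of all 10144 genes was 0.0, and 49.4% of them were higher. Of the 31 genes, 2-fold was reached by Ch25h, Cyp7b1 and Sqle, all 3 lower with Ccrl2+ (10.1% of all genes), and by 0 in the other direction (8.55%). With Ccrl2+ the dividing-cell markers were again lower, 5 of 5 by at least 2-fold, and 6 of 7 cardiomyocyte markers were at least 2-fold higher. The summed cardiomyocyte level was 17.1 against 15.17, almost wholly from Tnnt2 (17.03 against 15.08). For the poly-A spikes the median difference was 0.89. The part of these in the differences was not tested.

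In cardiomyocytes the same synthesis genes lay above PBS with the Ccrl2- secretome. Of 28, 26 were higher and 2 lower, with a median of 0.36 and a range of -0.28 to 1.02. Among all 10054 genes past the floor 47.1% were higher, with a median of -0.02 and an interquartile range of -0.22 to 0.18. At least 2-fold higher were 2 of the 31 (0.746% of all genes), Fads2 and the dim Cyp7b1, and 0 were at least 2-fold lower (0.786%). At 1.5-fold 5 were higher (4.63%) and 1 lower (4.6%). Fibroblast markers were higher on this array as well, 4 of 7 by at least 2-fold, with Col3a1 at 10.93 against 8.78 and a summed level of 16.3 against 15.83. Dividing-cell markers had a summed level of 14.11 against 13.27. Since most synthesis genes were higher in CF than in CM cultures, these marker values stand beside every CM difference below, and their part in it was not tested.

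With the Ccrl2+ secretome the cardiomyocyte differences were smaller. Of the 28 synthesis genes 22 were higher and 6 lower, with a median of 0.15, beside 47.0% of all 10009 genes higher and a median of -0.01. None of the 30 members past the floor was at least 2-fold higher (0.21% of all genes) or lower (0.629%). Fibroblast markers had a median of 0.67 and a summed level of 16.04 against 15.83, and dividing-cell markers a summed level of 13.77 against 13.27. Macrophage markers were lower in 7 of 7, 3 of them by at least 2-fold, with a summed level of 13.5 against 14.29. Between the secretomes, 23 of 28 were lower with Ccrl2+ than with Ccrl2-, with a median of -0.23, beside 49.8% of all 9995 genes and a median of 0.0, and 0 of the 31 reached 2-fold in either direction (0.31% of all genes). The fibroblast marker median in that comparison was -0.49. For the poly-A spikes the median difference there was 0.32, and it was 0.26 with Ccrl2+ over PBS. Each exceeds the size of the synthesis median of its comparison. With Ccrl2- over PBS the spike median was -0.02. The part of the spike differences in these values was not tested. Comparisons within a cell type share arrays, so the CM differences from PBS all rest on 1 PBS array, as do those of CF.

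**Figure D1:**
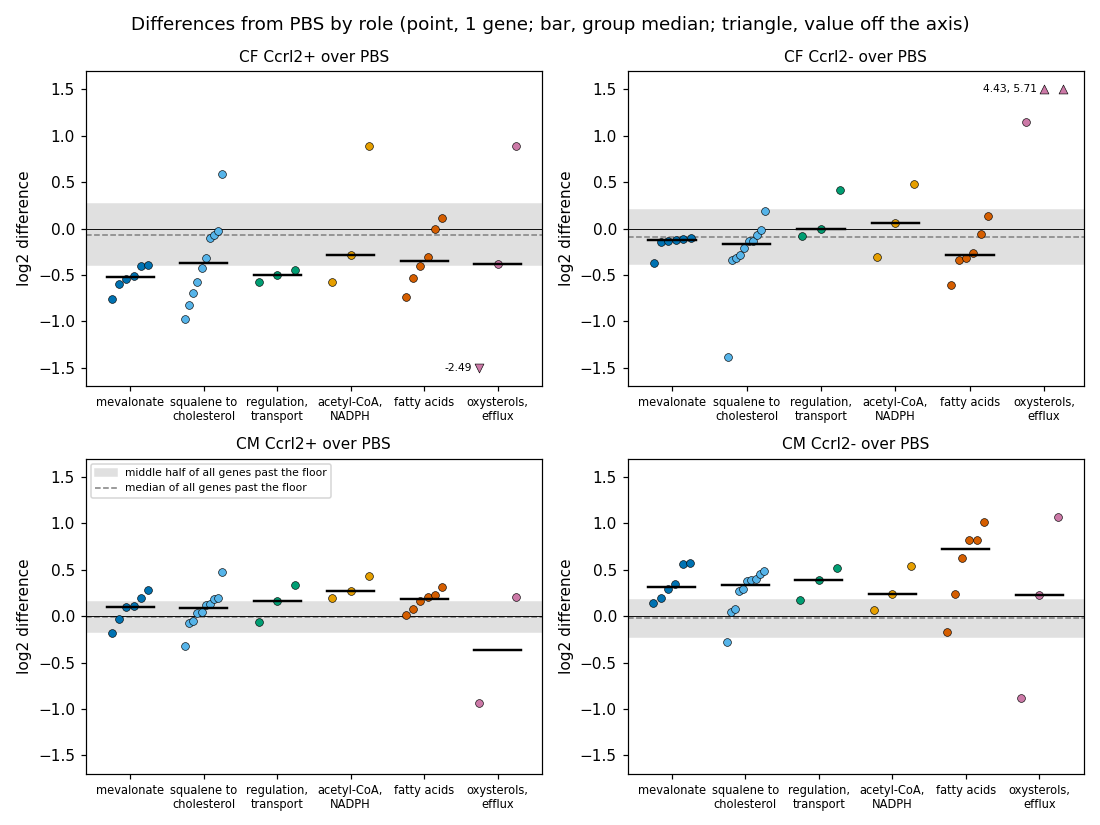
Log2 difference from PBS of each gene past the floor (points) by role for the 4 secretome comparisons, with the group median as a bar and the interquartile range of all genes past the floor as a grey band. The mevalonate points lie between -0.76 and -0.39 in CF with Ccrl2+, and the fatty acid group of CM with Ccrl2- has a median of 0.72; triangles carry the values of points beyond the axis.

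The first enzymes make farnesyl diphosphate, the precursor shared by sterols, prenyl groups and ubiquinone. In CF with Ccrl2+ all 6 measured genes of this step lay below PBS (55.3% of all genes), with a median of -0.53 (all genes: -0.07). Hmgcs1, the HMG-CoA synthase of the cytosol, lay at 16.49 in PBS, 15.73 with Ccrl2+ and 16.38 with Ccrl2- in CF, and at 15.17, 15.14 and 15.37 in CM. The Ccrl2+ array was the lowest of the CF arrays, by 0.76 against PBS, and the CM arrays spanned little. Idi1, the isomerase that makes dimethylallyl diphosphate, lay at 13.23, 12.63 and 13.13 in CF in the same order, and at 12.21, 12.31 and 12.5 in CM. Fdps, which joins the isoprene units into farnesyl diphosphate, lay at 11.68, 11.17 and 11.54 in CF and at 10.7, 10.81 and 11.27 in CM. For Fdps the Ccrl2- array was the highest CM array, by 0.57 against PBS. The mevalonate kinase gene Mvk, the phosphomevalonate kinase gene Pmvk and the decarboxylase gene Mvd were lower in CF with Ccrl2+ by 0.39 to 0.54. In CM with Ccrl2- they were higher by 0.14 to 0.56. Every value of Mvk, Pmvk and Mvd lay under the negative controls' 95th percentile of its array, so their differences are within the controls' range. All 6 genes were higher than PBS in CM with Ccrl2-, with a median of 0.32, and all 6 were lower with Ccrl2+ than with Ccrl2- in both cell types, with medians of -0.39 in CF and -0.26 in CM.

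Promoter windows are shown for 5 genes, 3 sterol pathway genes that were lower together in CF with Ccrl2+ and, for contrast, the genes with the highest measured difference in CM with Ccrl2- and in CF with Ccrl2-. They run from 250 bases before to 50 bases after the start, 5′ to 3′ along the gene, from the RefSeq table of build GRCm38.p6. Capitals mark, on either strand, the CCAAT box (CCAAT), the GC box (GGGCGG), the E-box (CACGTG) and a short sterol element core (CACNCCAC), the last chosen after the values were seen.
Hmgcs1, chr13:119690101-119690400, plus strand: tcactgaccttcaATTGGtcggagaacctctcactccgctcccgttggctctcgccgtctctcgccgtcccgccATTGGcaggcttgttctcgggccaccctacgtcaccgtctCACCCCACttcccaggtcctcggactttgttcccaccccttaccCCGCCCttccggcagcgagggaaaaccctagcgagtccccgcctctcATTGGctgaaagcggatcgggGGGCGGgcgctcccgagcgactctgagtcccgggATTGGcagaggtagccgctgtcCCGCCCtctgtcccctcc
Cyp51, chr5:4104648-4104947, minus strand: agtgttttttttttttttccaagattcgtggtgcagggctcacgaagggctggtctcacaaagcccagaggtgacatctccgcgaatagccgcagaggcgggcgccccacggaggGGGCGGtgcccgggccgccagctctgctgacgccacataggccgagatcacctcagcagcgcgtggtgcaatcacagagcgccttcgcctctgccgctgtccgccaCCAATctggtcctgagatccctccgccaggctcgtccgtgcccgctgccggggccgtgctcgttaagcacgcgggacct
Insig1, chr5:28071162-28071461, plus strand: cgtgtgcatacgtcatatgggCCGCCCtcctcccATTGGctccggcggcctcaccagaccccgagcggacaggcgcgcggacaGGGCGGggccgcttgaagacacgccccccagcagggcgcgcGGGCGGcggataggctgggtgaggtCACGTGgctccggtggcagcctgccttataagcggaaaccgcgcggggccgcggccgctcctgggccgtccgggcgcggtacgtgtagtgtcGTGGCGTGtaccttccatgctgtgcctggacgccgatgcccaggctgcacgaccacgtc
Fads2, chr19:10101454-10101753, minus strand: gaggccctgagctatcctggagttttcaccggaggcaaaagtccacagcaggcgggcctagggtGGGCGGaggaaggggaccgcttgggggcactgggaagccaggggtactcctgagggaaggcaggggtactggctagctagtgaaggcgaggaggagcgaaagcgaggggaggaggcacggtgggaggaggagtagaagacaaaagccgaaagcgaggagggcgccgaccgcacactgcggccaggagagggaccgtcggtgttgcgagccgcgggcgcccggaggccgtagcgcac
Ch25h, chr19:34475099-34475398, minus strand: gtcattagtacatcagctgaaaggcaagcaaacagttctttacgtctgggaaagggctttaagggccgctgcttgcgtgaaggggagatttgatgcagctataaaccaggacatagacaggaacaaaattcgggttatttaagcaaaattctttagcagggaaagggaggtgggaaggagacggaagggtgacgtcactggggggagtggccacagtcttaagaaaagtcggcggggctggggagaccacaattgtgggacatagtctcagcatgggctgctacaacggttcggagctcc

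The table held 28 windows for 24 of the 31 genes. CCAAT, the letters bound by NF-Y, a partner of the SREBPs, was in 73.1% of the 26 windows of synthesis genes, against 37.4% of all 32851 windows and 37.9% of the 11206 windows of genes that reached the floor on any array. GGGCGG was in 73.1% against 35.7% and 61.7%, and CACGTG in 15.4% against 7.15% and 9.99%. The longer sterol element, this core directly preceded by AT, was in 0 of the 28 windows and in 0.234% of all windows. The core CACNCCAC alone was in 2 of 28, those of Hmgcs1 and Insig1, and in 6.24% of all. The window of Hmgcs1 holds the CCAAT letters at 4 places. That of Ch25h holds none of these letters. It also lacks the interferon element repeat (GAAA, 2 bases of any kind, GAAA), found in 3.44% of all windows, and an NF-kB type site (GGGA, 2 bases of any kind, TTCC), found in 1.47%, both chosen after the values were seen. These counts describe letters in a 300-base window and do not show binding.

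From squalene to cholesterol 10 genes were measured. In CF with Ccrl2+ 9 lay below PBS (55.3% of all genes) and 1 above, with a median of -0.38. Fdft1, squalene synthase, lay at 14.39 in PBS, 13.7 with Ccrl2+ and 14.11 with Ccrl2- in CF, and at 12.72, 12.77 and 13.12 in CM. Sqle, the squalene epoxidase and a rate-limiting step, lay at 12.56, 11.74 and 12.75 in CF and at 11.01, 10.69 and 10.73 in CM. Sqle was therefore lowest with Ccrl2+ in CF, by 0.82 against PBS and by 1.01 against Ccrl2-, a difference that became -0.93 with an added quantile normalization. In CM it went against its group, since both secretome arrays lay below PBS.

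Cyp51, the lanosterol demethylase, lay at 14.61, 14.03 and 14.54 in CF and at 13.11, 13.59 and 13.57 in CM. It was lower than PBS by 0.58 in CF with Ccrl2+ and higher by 0.48 in CM with Ccrl2+. Ebp, a sterol isomerase, was the exception in CF, at 10.92 in PBS, 11.51 with Ccrl2+ and 10.79 with Ccrl2-, while its CM values were 10.54, 10.58 and 10.81. The CF value with Ccrl2+ was the highest of the 6. Lss, Msmo1, Nsdhl, Hsd17b7 and Sc5d differed from PBS by -0.43 to -0.02 on the CF secretome arrays and by 0.05 to 0.49 in CM with Ccrl2-. Hsd17b7, a ketosteroid reductase of the branch, had the smallest of these CM differences and Msmo1, a methylsterol oxidase, the largest. Across the 10 genes CM with Ccrl2- had a median of 0.33, with 9 higher (47.1% of all genes) and Sqle lower.

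Dhcr7, the reductase that makes cholesterol from its immediate precursor, stood apart from the rest of the branch in CF with Ccrl2-. It lay at 12.1 in PBS, 11.12 with Ccrl2+ and 10.72 with Ccrl2- in CF, and at 10.38, 10.31 and 10.46 in CM. Both CF secretome arrays were below PBS, by 0.98 and by 1.38, and the same PBS array serves both differences. With Ccrl2+ the next lowest gene of the branch was Sqle, close by at -0.82, and with Ccrl2- it was Hsd17b7 at -0.34. The Dhcr7 value with Ccrl2- lies at the 95th percentile of the negative controls of that array (10.69). Against the higher such percentile of the pair, 10.74, its difference is at least 1.36.

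Among regulators, Insig1, a sterol sensor that is itself an SREBP target, lay at 14.75 in PBS, 14.17 with Ccrl2+ and 14.67 with Ccrl2- in CF, and at 13.18, 13.35 and 13.7 in CM. Srebf2, which encodes SREBP-2, lay at 14.81, 14.31 and 14.81 in CF and at 13.81, 13.75 and 13.99 in CM. Stard4, a cytosolic cholesterol carrier, lay at 11.79, 11.34 and 12.2 in CF and at 10.54, 10.88 and 10.93 in CM. All 3 were lowest with Ccrl2+ among the CF arrays and highest with Ccrl2- among the CM arrays. Their medians were -0.5 and 0.39 against PBS.

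The 3 supply genes differed among themselves. Acly, which releases acetyl-CoA from citrate, lay at 13.32, 12.74 and 13.38 in CF and at 12.32, 12.59 and 12.86 in CM, lowest with Ccrl2+ in CF and highest with Ccrl2- in CM. Acss2, which makes acetyl-CoA from acetate, ran the other way in CF, at 8.74 in PBS, 9.63 with Ccrl2+ and 9.22 with Ccrl2-, and lay at 9.58, 10.01 and 9.82 in CM. Acss2 was above PBS on all 4 secretome arrays, although its 6 values all lie under the controls' 95th percentile. Me1, the malic enzyme that makes NADPH, lay at 11.89, 11.6 and 11.58 in CF and at 13.34, 13.54 and 13.41 in CM.

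Fatty acid genes gave the clearest CM difference. With Ccrl2- 5 of 6 were above PBS (47.1% of all genes) with a median of 0.72, and 4 by at least 1.5-fold (4.63% of all genes). Fads2, a front-end desaturase of polyunsaturated fatty acids, lay at 13.0 in PBS, 13.32 with Ccrl2+ and 14.02 with Ccrl2- in CM, and at 15.81, 15.07 and 15.55 in CF. Scd1, the stearoyl-CoA desaturase, lay at 13.69, 13.86 and 14.51 in CM and at 15.25, 15.36 and 14.64 in CF. Elovl6, an elongase of palmitate, lay at 11.04, 11.25 and 11.86 in CM and at 12.35, 11.82 and 12.49 in CF.

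The Ccrl2- array was the highest CM array for these 3 genes and for Fads1, the other front-end desaturase, which lay at 12.5, 12.58 and 13.13 in CM and at 14.35, 14.04 and 14.01 in CF. The differences from PBS in CM were 1.02 for Fads2, 0.82 for Scd1, 0.82 for Elovl6 and 0.63 for Fads1. Scd1 went the other way in CF with Ccrl2-, lower by 0.61. The rate-limiting carboxylase gene Acaca and the fatty acid synthase gene Fasn, which build the chain itself, differed little in CM with Ccrl2-, by -0.17 and 0.24. Every Acaca value lay under the negative controls' 95th percentile of its array, so its small difference does not show that the gene was unchanged. Scd1 and the Fads genes have close relatives, and their probes may bind related transcripts.

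**Figure D2:**
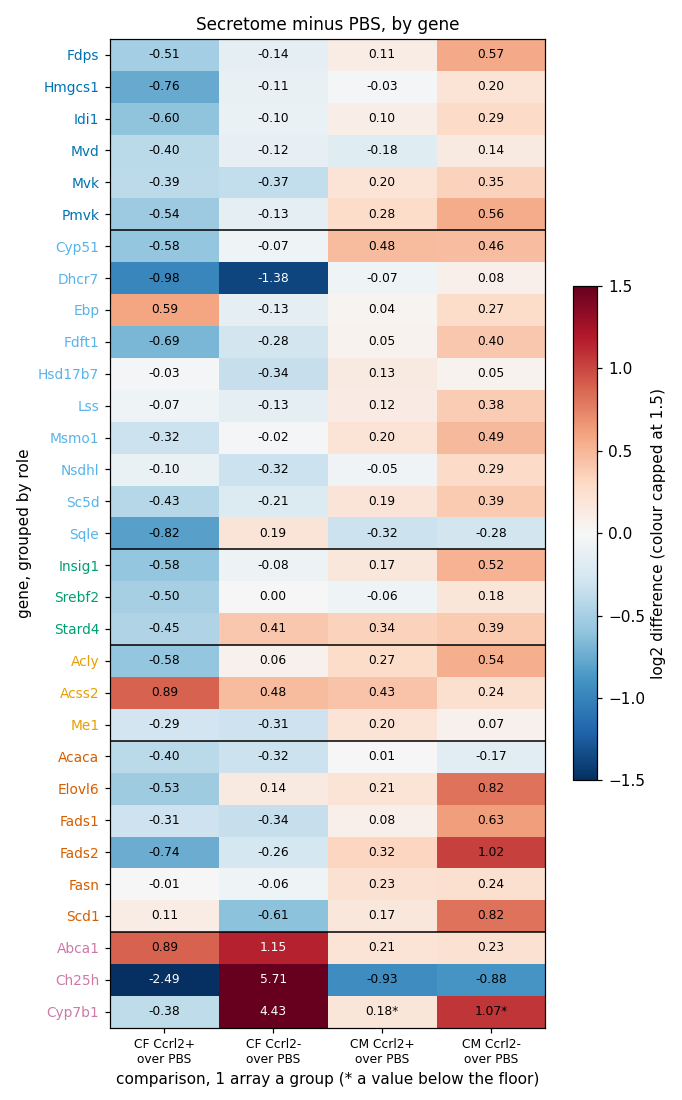
Log2 difference from PBS for the 31 genes (rows, grouped by role) in the 4 secretome comparisons (columns, 1 array a group), with the value in each cell and colour capped at 1.5; an asterisk marks a pair with a value below the floor. The first column is blue in all but a few rows and the fourth red in all but a few, and Ch25h and Cyp7b1 carry the highest values of the second column.

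Among genes that act on cholesterol once made, Ch25h and Cyp7b1 had the largest differences of the 31 genes in CF with Ccrl2-. Ch25h, the hydroxylase that turns cholesterol into an oxysterol signal, lay at 9.16 in PBS, 6.67 with Ccrl2+ and 14.87 with Ccrl2- in CF, and at 9.95, 9.02 and 9.07 in CM. The CF array with Ccrl2- stood far above the other 5, by 5.71 or 52.3-fold against PBS. Because every other value lies under the controls' 95th percentile, a stricter reading takes that percentile as the lower value, and the difference is then at least 4.13. Against Ccrl2+ the difference was 8.2, or at least 4.18 on the stricter reading. The Ccrl2+ value was lower than PBS by 2.49, with both values within the range of the negative controls.

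Cyp7b1, the hydroxylase that inactivates such oxysterols, lay at 7.23, 6.85 and 11.66 in CF and at 5.63, 5.81 and 6.7 in CM. Again the Ccrl2- array of CF was the only one above the negative controls' 95th percentile, by 4.43 or 21.6-fold against PBS and by at least 0.92 on the stricter reading. In CM the PBS value lay below the floor, and the Ccrl2- array was higher by at least 0.15. Abca1, the exporter that loads cholesterol onto apolipoproteins and an LXR target, lay at 12.73, 13.62 and 13.88 in CF and at 12.67, 12.88 and 12.9 in CM. Abca1 was thus above PBS on both CF secretome arrays, by 0.89 and 1.15, and by 0.21 and 0.23 on those of CM. Of the macrophage markers, which mark cells known to express these genes, Lyz2 was higher with Ccrl2- (13.84 against 12.52) and C1qa lower (9.42 against 11.22). The part of macrophage transcripts in the Ch25h, Cyp7b1 and Abca1 differences was not tested.

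**Figure D3:**
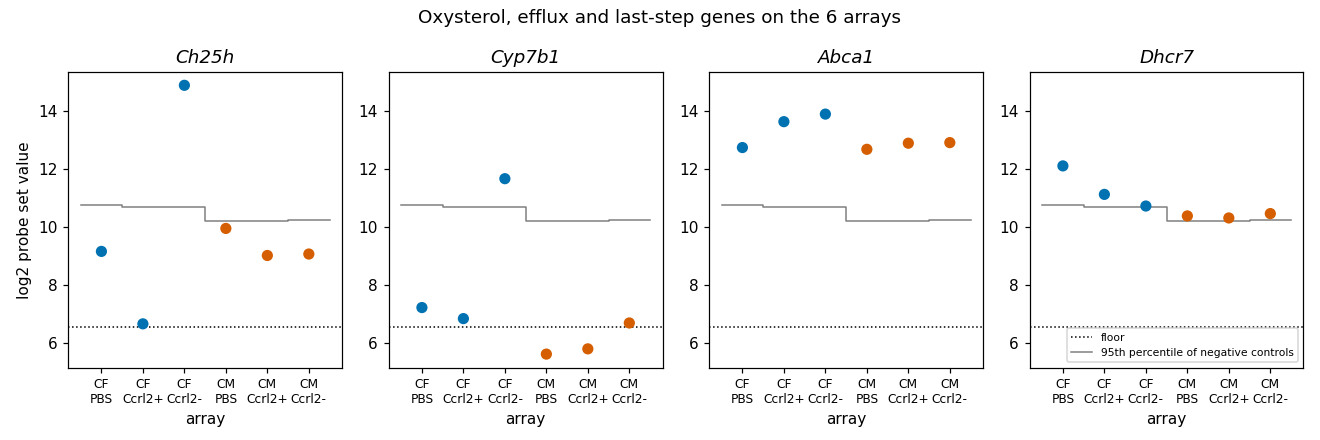
Log2 probe set values of Ch25h, Cyp7b1, Abca1 and Dhcr7 on the 6 arrays (1 point an array; blue CF, orange CM), with the floor of 6.55 dotted and the 95th percentile of the negative controls of each array as a grey line. Ch25h at 14.87 and Cyp7b1 at 11.66 are above the grey line on the CF array with Ccrl2- alone, and Dhcr7 lies at 12.1 in CF with PBS and near the line with Ccrl2-.

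Other genes of the pathway were counted from lists of 51 genes, of which 45 were on the array. In CF with Ccrl2+ the median of the 38 past the floor was -0.01. At least 2-fold was reached by 2 genes upward (4.87% of all genes) and 2 downward (6.13%). Abcg1, an LXR target that exports cholesterol, was higher (8.54 against 6.92), with both values within the range of the negative controls. Cyp27a1, another sterol hydroxylase gene, was higher (11.88 against 10.45), by at least 1.14 on the stricter reading. Vldlr, a lipoprotein receptor, was lower (10.39 against 12.38), by at least 1.64 on that reading, and so was the lipogenic regulator Mid1ip1 (8.76 against 9.79), again within the controls' range. The genes of SREBP processing (Scap, Insig2 and Mbtps1) differed by -0.01 to 0.53, and Insig2 lay within the controls' range.

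In CF with Ccrl2- the median of 39 was -0.15, and again 2 reached 2-fold upward (6.18% of all genes) and 2 downward (4.83%). The fatty acid activating Acsl5 (13.4 against 11.69) and Gpam, the first enzyme of triglyceride synthesis (12.23 against 10.89), were higher. Nceh1, a cholesteryl ester hydrolase, was lower (10.54 against 11.88), by at least 1.14 on the stricter reading, and Cyp27a1 lay at 8.53 against 10.45, both within the controls' range. Abcg1 lay at 7.02 against 6.92, both at background. Between the CF secretome arrays, 6 of 39 were at least 2-fold higher with Ccrl2+ (8.55% of all genes) and 3 lower (10.1%). Cyp27a1 was higher with Ccrl2+ (11.88 against 8.53), by at least 1.19 on the stricter reading. Vldlr (10.39 against 12.76) and Acsl5 (11.51 against 13.4) were lower, with the lower Vldlr value within the controls' range. In CM 0 of 42 genes with Ccrl2+ reached 2-fold against PBS in either direction (0.839% of all genes). With Ccrl2- it was 0 of 41 (1.53%), and the medians were -0.1 and 0.0.

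In PBS the synthesis genes were higher in fibroblasts than in cardiomyocytes. Of the 31 genes, 18 were at least 2-fold higher in CF (13.9% of all 10394 genes past the floor) and 1, Me1, at least 2-fold lower (16.9%). The 18 include Cyp7b1, whose CM value lay below the floor and whose difference is at least 0.68. The count was 16 with an added quantile normalization, 15 with the intensity trend removed and 17 with values raised to the floor. The median of all genes was then -0.04, -0.02 and 0.01, in that order. The share of all genes at 2-fold was not computed under these settings, so these counts have no reference beside them. Of the 28 synthesis genes 26 were higher, beside 50.2% of all genes, and their median was 1.09, against 0.01 for all genes. Negative controls were also higher in CF, by a median of 0.55, and the part of this background in the differences was not tested. Fads2 (15.81 against 13.0) and Fads1 (14.35 against 12.5) had the largest differences, 2.81 and 1.85. Of the squalene branch all 10 were higher, with a median of 1.32, led by Dhcr7 (1.72) and Fdft1 (1.67). The exceptions were Me1 (11.89 against 13.34), Acss2 (8.74 against 9.58) and Ch25h (9.16 against 9.95), and Abca1 lay at 12.73 and 12.67. Triglyceride and droplet genes ran the other way, 6 of 8 at least 2-fold lower in CF and 0 higher, such as the lipase gene Pnpla2 (11.72 against 13.81) and the phosphatase gene Lpin1 (10.56 against 12.59). Dividing-cell markers were higher in CF, 4 of 5 by at least 2-fold, with a summed level of 14.6 against 13.27, and their part in the difference was not tested.

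**Figure D4:**
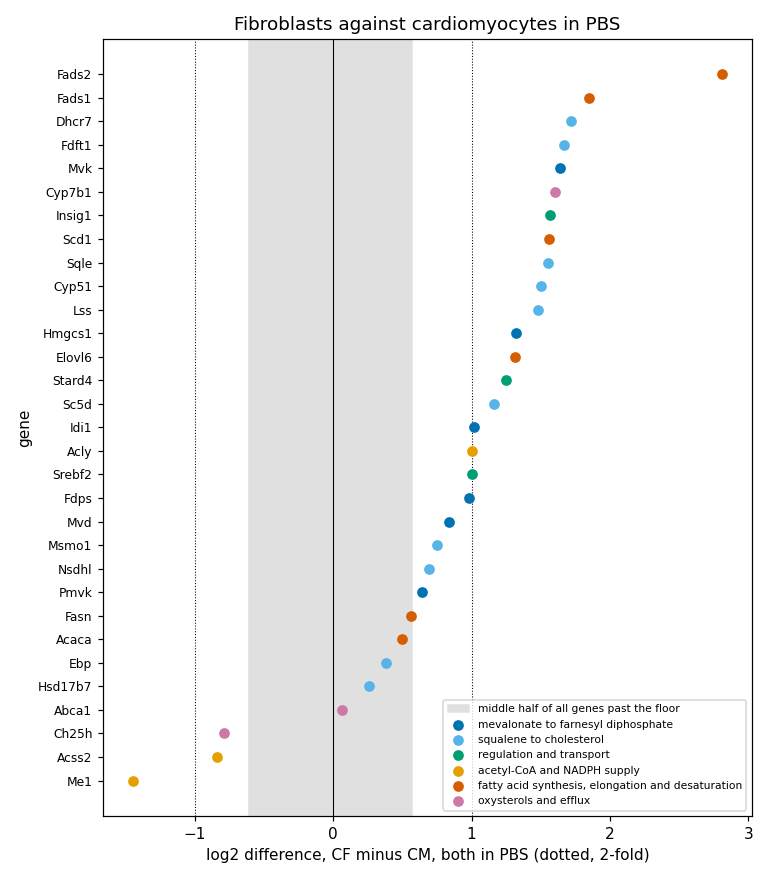
Log2 difference between CF and CM in PBS for the 31 genes, ordered by size and coloured by role, with 2-fold as dotted lines and the interquartile range of all genes past the floor (-0.61 to 0.57) in grey. Points run from Me1 at -1.45 to Fads2 at 2.81, and 18 lie at or beyond 2-fold on the CF side, Cyp7b1 among them with a CM value below the floor.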

How the data were processed

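Biotin-labelled cRNA prepared from 1 to 8 ug of total RNA was hybridised to Affymetrix arrays, per the labels' protocols. Per the submitters' processing notes, the tool behind the deposited log2 values was Affymetrix Expression Console. The sources used here name no version of it, no summary algorithm and no genome build. Sorted values of the 6 arrays differ by at most 0.3, so a change of most genes in 1 direction would not be seen.

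Of 28846 probe sets, 19572 had 1 symbol in the platform annotation, 0 several and 9274 none. All 19572 Entrez identifiers matched the RefSeq table of GRCm38.p6. For 55 symbols with several probe sets the one with the highest mean was used. Groups followed the source labels. Differences were subtractions of log2 values. Genes were counted at 2-fold, at 1.5-fold and by sign. Members and lists were chosen with earlier results of these data known. Values on all arrays are written out for members at 2-fold in a secretome comparison and for up to 3 more per role group. Where the lower value is below the floor, the difference from the floor is a bound, and the stricter bound uses the 95th percentile of the negative controls. Alternatives were other fold thresholds and floors, quantile normalization, a loess trend (span 0.4) removed and probe set means. Counting was tested on simulated data. No protein comparison was made. Python 3.11.15, numpy 2.4.6, pandas 2.3.3, statsmodels 0.14.6 and matplotlib 3.10.9 were used.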

Additional observations from a re-analysis of the deposited data

Results flagged for a closer look

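Some genes differed in opposite directions in the 2 cell types under the same contrast, with a gap of at least 2-fold between the cell types. None of these gaps was tested, since each group had 1 array. With Ccrl2+ over PBS, Cyp51 differed by -0.58 in CF and 0.48 in CM, a gap of -1.06, and Fads2 by -0.74 and 0.32, also a gap of -1.06. With Ccrl2- over PBS, Ch25h differed by 5.71 in CF and -0.88 in CM, a gap of 6.59, with 3 of its 4 values inside the range of the negative controls. Dhcr7 differed by -1.38 and 0.08, a gap of -1.46, Scd1 by -0.61 and 0.82, a gap of -1.43, and Fads2 by -0.26 and 1.02, a gap of -1.28. Between the secretomes, Scd1 was higher with Ccrl2+ by 0.72 in CF and lower by 0.65 in CM, a gap of 1.37. The gaps of the first 2 contrasts share the PBS arrays.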

How the results depend on the processing

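No paired analysis was possible because each group had 1 array. The median differences moved by no more than 0.1 under every floor, scaling and probe set alternative run. At 1.5-fold, with the share of all genes in brackets, in CF 3 members were higher (11.4%) and 7 lower (15.0%) with Ccrl2+ over PBS, 2 lower (14.8%) with Ccrl2- over PBS, and 2 higher (18.3%) and 7 lower (19.2%) with Ccrl2+ over Ccrl2-, the last near the share of all genes. In CM 1 was lower (3.26%) with Ccrl2+, 5 higher (4.63%) and 1 lower (4.6%) with Ccrl2-, and 4 lower (2.39%) with Ccrl2+ over Ccrl2-, and in CF over CM 3 were lower (25.9%). At 3-fold, 0 were lower in CF with Ccrl2-, 0 higher in CM with Ccrl2-, and 6 higher and 0 lower in CF over CM. The share of all genes at 3-fold was not computed, so these counts have no reference beside them. With the floor at the 75th percentile (10.14), 0 were lower in CF with Ccrl2+ (5.53% of all genes past it), since Ch25h was no longer counted. In CM with Ccrl2-, 1 was higher (0.428%), and 1 also when values below the usual floor were raised to that usual floor. The 75th percentile floor left 1 synthesis gene below 0 in CM with Ccrl2- (52.0% of all genes) and in CF over CM (49.5%). It left 3 above 0 in CM with Ccrl2+ over Ccrl2- (48.1%). Synthesis genes above PBS in CF numbered 6 with Ccrl2+ under quantile normalization or with the trend removed, and 11 with Ccrl2- with the trend removed. Shares of all genes were not computed under quantile normalization, with the trend removed or with values raised to the floor. The signs of synthesis genes, the 3 motifs named as such and the comparison with expressed genes' windows were chosen after the data were seen.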
